A study of Mus musculus with 12 samples.

Results

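Thymuses of young mice that carry a substitution in 1 copy of Mcm4 were compared with wild-type thymuses of the same age. 8 of the 12 Affymetrix Mouse Exon 1.0 ST arrays of the series were used, chosen by their titles and genotypes. In the pre-leukemic group, 4 pools came from heterozygotes (Mcm4 D573H/+), and in the wild-type group 4 pools came from Mcm4 +/+ mice. All mice were females of the Sdl model, aged 21 days, and each pool combined 3 whole thymuses on 1 array. The other 4 arrays hold thymic tumors of moribund heterozygotes and entered no comparison here. The substitution is carried in every cell of these mice and not in thymocytes alone, and whether pools shared litters is not given in the sources used here, so p-values measure the spread between pools. The question is what the thymus of heterozygotes expresses before tumors are seen.

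Mcm4 is a subunit of the MCM helicase, a ring of related proteins that is loaded on DNA at origins and unwinds it during S phase. In the thymus, progenitors enter as double-negative cells that lack CD4 and CD8, receive Notch signals from the cortical epithelium and divide after the pre-T-cell receptor forms. They become double-positive cells, which make up most of the organ, and those selected mature into single-positive cells that acquire Il7r, Ccr7 and S1pr1 and leave through the medulla. A whole-thymus RNA sample therefore mixes dividing thymocytes, resting thymocytes, epithelium, other stromal cells and blood.

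The tissue label was checked against defining genes. Cd3e, a chain of the T-cell receptor complex, lay between 12.24 and 12.45 on the 8 arrays (log2 intensity, here and throughout), Cd8a between 12.75 and 13.02, and the epithelial chemokine Ccl25 between 12.97 and 13.14. Foxn1, the transcription factor that defines thymic epithelium, lay between 8.17 and 8.68, and Aire, of the medulla, between 7.75 and 8.42. Olfactory receptor clusters, taken as a measure of weak signal because thymus is not known to use them, had a median of 4.69. Mcm4 itself measured 10.78, 10.71, 10.64 and 10.76 in wild-type pools 1 to 4 and 10.72, 10.86, 10.76 and 10.92 in pre-leukemic pools 1 to 4, a difference of 0.09 ± 0.07 (pre-leukemic minus wild-type mean ± SE, the form used for all differences below). The groups overlapped, and this intensity does not separate the alleles.

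Several arrays stood apart before any comparison. Pre-leukemic pool 2 was the highest of the 8 arrays for 5333 of 15223 genes and the lowest for 2678. Its olfactory receptor median was 4.99, against 4.43 to 4.78 in wild type and 4.52 to 4.69 in the other pre-leukemic pools. Pre-leukemic pool 3 lay below all 7 other arrays by at least 2-fold for 34 genes, most of them known from fat and connective tissue. Wild-type pool 4 lay above all 7 others by at least 2-fold for 53 genes, against 0 in each of the other wild-type pools. The spread between pools was larger in the pre-leukemic group: the median SD of a gene was 0.173, against 0.0914 in wild type, and 82.7% of genes had the larger SD over the pre-leukemic pools.

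The 53 genes apart in wild-type pool 4 were led by serum proteins that the liver is known to secrete. Albumin, Alb, measured 6.70, 6.13, 6.10 and 13.19 in wild-type pools 1 to 4 and 6.0, 5.94, 8.70 and 5.88 in pre-leukemic pools 1 to 4. Ahsg measured 5.97, 6.03, 6.57 and 11.09 in wild type, and transthyretin, Ttr, 6.03, 5.97, 6.10 and 10.35. In each case wild-type pool 4 stood alone, apart from an albumin value between the 2 levels in pre-leukemic pool 3. A second set was known from heart muscle: Nppa, the precursor of atrial natriuretic peptide, measured 6.15, 10.22, 10.89 and 7.46 in wild type and 6.50, 6.55, 6.62 and 6.25 in pre-leukemic thymus, and cardiac actin, Actc1, 8.84, 10.22, 11.01 and 9.20 and 9.38, 8.01, 7.90 and 9.79. Both were highest in wild-type pools 2 and 3. Parathyroid hormone, Pth, was high in pre-leukemic pool 1 alone, at 9.13 against 4.75 to 6.44 on the other arrays. Where these transcripts came from was not tested. These genes were picked out after their values were seen. Without wild-type pool 4 the difference of Alb was 0.32 instead of -1.40.

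**Figure D1:**
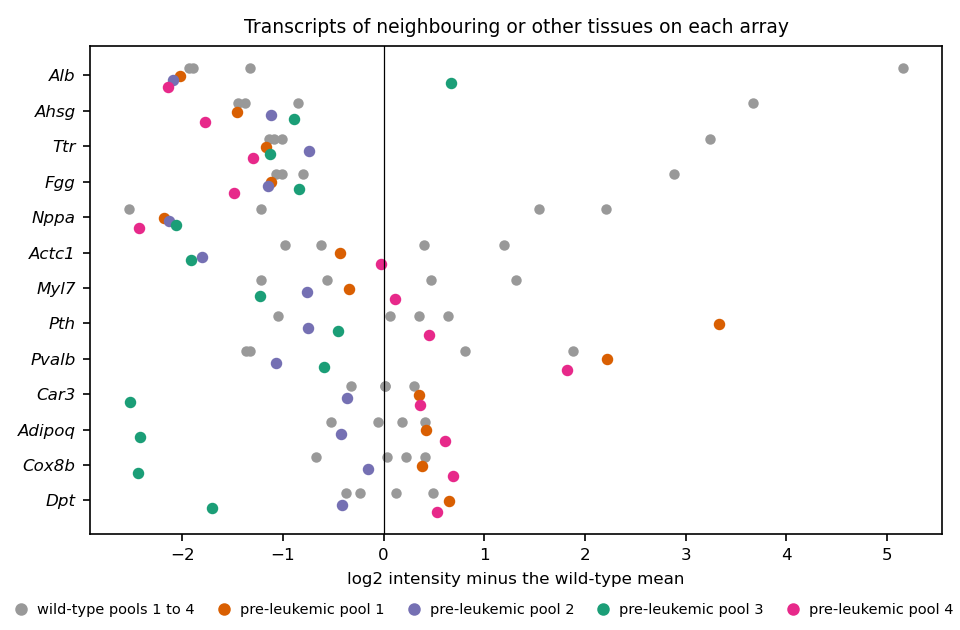
Log2 intensity minus the wild-type mean (horizontal axis) for 13 transcripts known from liver, heart, parathyroid, skeletal muscle, fat or connective tissue; grey points are the 4 wild-type pools and coloured points the pre-leukemic pools. Alb reaches 13.19 in wild-type pool 4, Nppa 10.89 in wild-type pool 3 and Pth 9.13 in pre-leukemic pool 1, and Car3, Adipoq, Cox8b and Dpt are lowest in pre-leukemic pool 3.

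These transcripts set the largest differences of the comparison. 9 genes differed by at least 2-fold between the group means, 1 higher and 8 lower in pre-leukemic thymus, and the groups overlapped for all 9. The 8 lower genes were Nppa (-2.21 ± 0.93), Alb (-1.40 ± 1.53), Ahsg (-1.31 ± 1.03), Cyp2e1 (-1.23 ± 0.62), Fgg (-1.15 ± 0.80), Mup3 (-1.14 ± 0.86), Ttr (-1.09 ± 0.90) and Actc1 (-1.04 ± 0.57), all known from liver or heart. The higher one was Cd5l (1.0 ± 0.26), a protein secreted by macrophages, which measured 7.04, 7.47, 6.21 and 7.44 in pre-leukemic pools 1 to 4 against 6.27, 5.91, 6.10 and 5.87 in wild type. Pre-leukemic pool 3 was within the wild-type range and the other 3 pools above it.

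Across the array as a whole the difference between the groups was small. By limma with Benjamini-Hochberg adjustment over 17829 clusters, 0 clusters (0%) passed an adjusted p of 0.05, with a lowest adjusted p of 0.573; an unadjusted p below 0.05 was reached by 1112 clusters (6.24%). Among 15223 genes the median absolute difference was 0.092, the 95th percentile 0.28 and the 99th percentile 0.44. A difference of at least 1.5-fold was measured for 56 genes, 15 higher and 41 lower, and for 6 of them the groups did not overlap. The 95% interval of the difference lay wholly within 2-fold either way for 98.6% of genes and within 1.5-fold for 89.7%. Intensities carry background, which makes the fold of weakly expressed genes smaller than that of their RNA. The adjusted p of the genes named here was 0.764 to 0.984 (limma), so none was called and differences are given as measured values.

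Because no gene passed the test, agreement of the pools is described by separation, meaning that all 4 pre-leukemic pools lay above, or all 4 below, all 4 wild-type pools. 565 genes were separated upward (3.71% of 15223) and 112 downward (0.736%), so 83.5% of the separated genes were higher in pre-leukemic thymus. This split differed with the scaling of the arrays. The median of the arrays was 7.71 in pre-leukemic pools 1 and 2 and 7.58 to 7.63 in the others. After quantile normalization 501 genes were separated upward and 249 downward (66.8% higher), and after centring each array on its median 264 and 115 (69.7% higher). The share of genes with a higher pre-leukemic mean was 62.5% as deposited, 54.5% after quantile normalization and 48.4% after centring. It also varied with level: the median difference was 0.075 in the lowest of 4 equal classes of intensity and -0.018 in the highest. Separated differences were small, with a median of 0.19 upward and -0.20 downward. Groups of 3 separate more easily: without pre-leukemic pool 3 the counts were 1292 upward and 1233 downward, without pool 4 1346 and 250, without pool 2 690 and 171, without wild-type pool 3 822 and 239, and without wild-type pool 4 796 and 259.

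**Figure D2:**
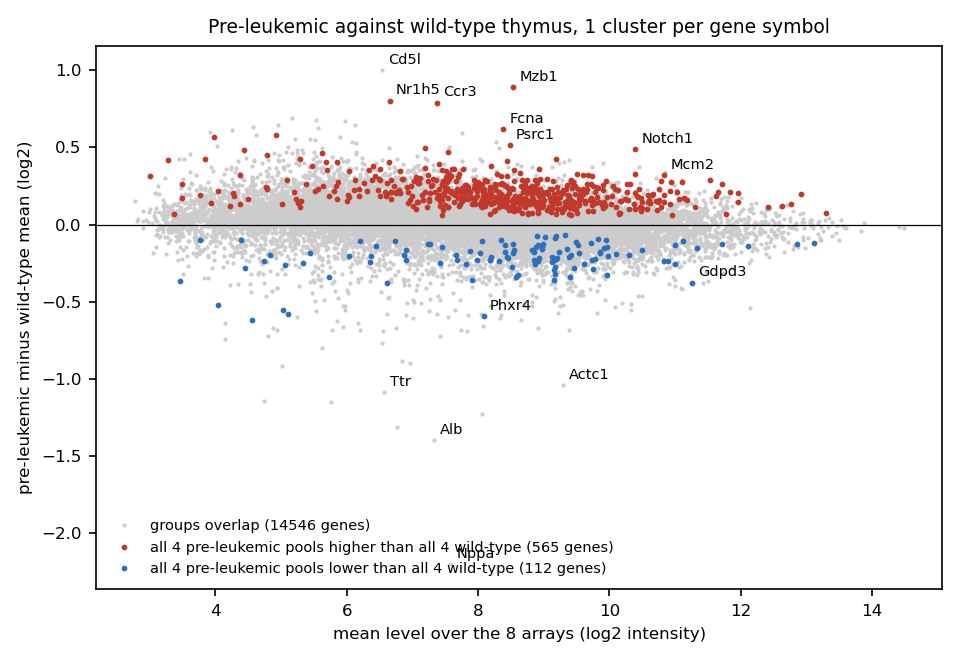
Difference between pre-leukemic and wild-type means (log2, vertical axis) against the mean level over the 8 arrays (log2 intensity, horizontal axis) for 15223 genes. Red and blue points are the 565 and 112 genes whose groups do not overlap, with median differences of 0.19 and -0.20, while the lowest named points, Nppa, Alb, Ttr and Actc1, are grey because their groups overlap.

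Among the 46 gene lists, those of replication, nucleotide supply and ribosome biogenesis held the largest shares of genes separated upward. The share was 41.2% for fork genes, 40% for the MCM family, 33.3% for nucleotide supply, 28.6% for origin licensing and firing and 27.9% for Myc and ribosome biogenesis, against 3.71% of all genes and at most 5.99% in any of 4 equal classes of level. Counts of positive genes, here and below, stand beside the 62.5% of all genes with a higher pre-leukemic mean, a share of 48.4% after centring. In the MCM family 8 of 10 measured genes had a higher pre-leukemic mean and 4 of 10 were separated upward, and the median difference was 0.19, against 0.040 over all genes. Mcm2, a subunit of the helicase ring, measured 10.70, 10.69, 10.60 and 10.72 in wild-type pools and 10.88, 11.13, 10.95 and 11.03 in pre-leukemic pools, a difference of 0.32 ± 0.07. Every pre-leukemic pool lay above every wild-type pool, with pool 2 the highest. Mcm3 measured 10.36, 10.32, 10.33 and 10.37 in wild type and 10.51, 10.68, 10.45 and 10.65 in pre-leukemic thymus (0.23 ± 0.07). Mcm10, which joins the helicase when origins fire, measured 9.26, 9.25, 9.21 and 9.38 and 9.51, 9.68, 9.44 and 9.63 (0.29 ± 0.07), and Mcm8, of a helicase for recombination, 0.17 ± 0.06. All 4 were separated. Mcm5 (0.26 ± 0.09), Mcm6 (0.16 ± 0.07) and Mcm7 (0.21 ± 0.07) were not, because 1 or more pre-leukemic pools lay within the wild-type range.

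Partners that load and fire the helicase also had mostly higher means. Of 21 licensing and firing genes, 15 had a positive difference (71.4%, against 62.5% of all genes) and 6 were separated upward (median 0.12). Gins2, of the GINS complex, measured 9.60, 9.65, 9.52 and 9.58 in wild type and 9.99, 9.90, 9.99 and 9.72 in pre-leukemic thymus (0.31 ± 0.08), and Cdc45, its partner in the active helicase, 9.29, 9.24, 9.33 and 9.36 and 9.59, 9.68, 9.45 and 9.61 (0.28 ± 0.07). The lowest pre-leukemic value of each was above the highest wild-type value. Orc1 (0.22 ± 0.06) and Cdc6 (0.23 ± 0.08), which mark and load origins, Recql4 (0.25 ± 0.07) and Wdhd1 (0.14 ± 0.07) were the other 4. Cdt1, the loading factor, had a larger difference (0.37 ± 0.12), but pre-leukemic pool 1 at 9.76 and pool 3 at 9.75 did not exceed wild-type pool 4 at 9.76. Orc4 was the most negative member (-0.27 ± 0.14), low in pools 1 and 2 (8.69 and 8.60) and not in pool 3 (9.30).

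The list of fork and Okazaki-fragment genes held the most separated members, 14 of 34 upward and 0 downward, with 31 positive and a median of 0.14. Pold1 and Pold2, the catalytic and a small subunit of DNA polymerase delta, differed by 0.29 ± 0.06 and 0.33 ± 0.08. Pold2 measured 10.17, 10.27, 10.19 and 10.27 in wild-type pools 1 to 4 and 10.40, 10.73, 10.53 and 10.55 in pre-leukemic pools 1 to 4. The remaining separated members were the clamp loaders Rfc3, Rfc5 (0.26 ± 0.07) and Chtf18, the single-strand binding protein Rpa2 (0.25 ± 0.07), the primase Prim2, the nucleases Dna2 and Rnaseh2a, the fork protection proteins Timeless and Clspn, the histone chaperones Chaf1a and Chaf1b, and Uhrf1 (0.27 ± 0.08), which guides methylation of new DNA. None of the 34 exceeded 0.33, a fold of 1.25. Replication-dependent histones, whose near-identical copies share probes and are uncertain on this platform, had 0 of 18 separated and a median of -0.01.

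**Figure D3:**
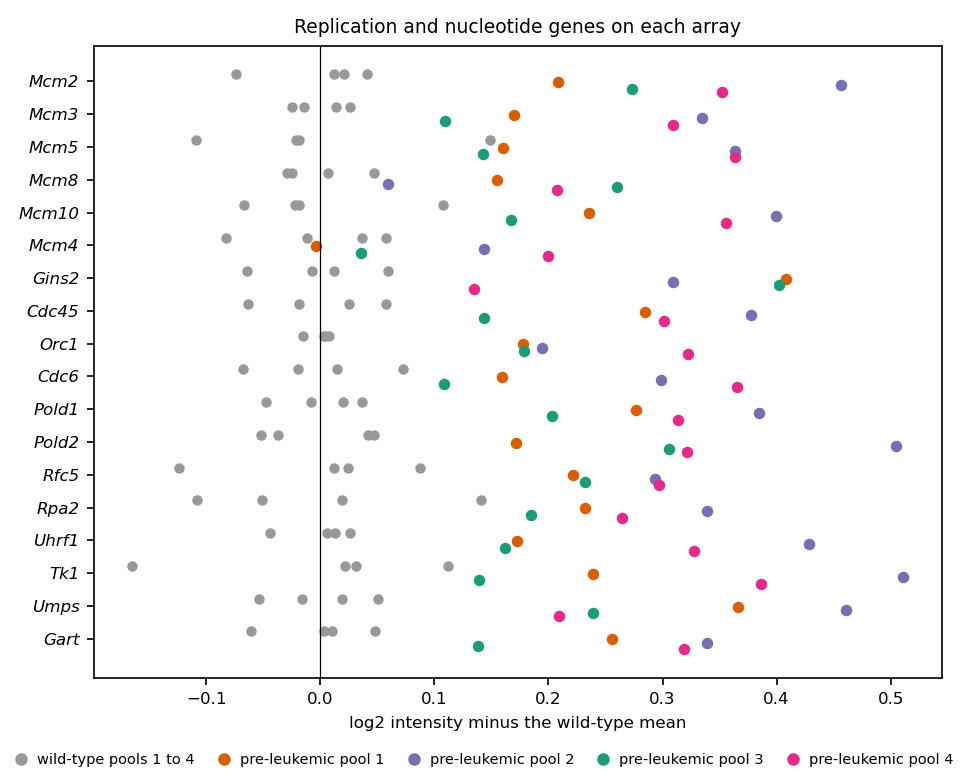
Log2 intensity minus the wild-type mean (horizontal axis) for 18 replication and nucleotide genes on the 8 arrays; grey points are wild-type pools, coloured points pre-leukemic pools. All rows but Mcm4 and Mcm5 show 4 coloured points to the right of 4 grey points, with Mcm2 at 0.32, Pold2 at 0.33 and Umps at 0.32 among the widest.

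Enzymes that supply nucleotides showed the same direction. Of 27 measured, 23 were positive and 9 separated upward (median 0.17). Thymidine kinase, Tk1, measured 9.55, 9.63, 9.36 and 9.54 in wild type and 9.76, 10.03, 9.66 and 9.91 in pre-leukemic thymus (0.32 ± 0.10), and the pyrimidine enzyme Umps 9.43, 9.39, 9.46 and 9.50 and 9.81, 9.91, 9.68 and 9.65 (0.32 ± 0.07). The groups did not overlap for either enzyme. The purine enzymes Gart (0.26 ± 0.07), Adsl (0.21 ± 0.07) and Ppat (0.17 ± 0.06), the pyrimidine enzymes Cad (0.24 ± 0.08), Ctps (0.16 ± 0.06) and Dctd (0.27 ± 0.08) and the serine enzyme Psat1 (0.16 ± 0.06) completed the 9. Samhd1, which degrades nucleotides, lay at the other end with -0.57 ± 0.18: it measured 9.58, 9.11, 10.04 and 9.36 in pre-leukemic pools against 10.16, 10.25, 10.04 and 9.93 in wild type, and pool 3 alone was within the wild-type range.

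E2F factors are known to drive many S-phase genes, and promoters of 6 separated replication genes are shown, 5 of them picked because they hold a match to the E2F motif and Mcm2 as one without. Promoters are the RefSeq sequences of GRCm38.p6 from 250 bases before to 50 after the gene start, the first listed per gene, and capitals mark matches to 4 words of the E2F motif (TTTCCCGC, TTTCGCGC, TTTGCCGC and TTTGGCGC) on either strand.
Mcm3 (chr1:20820263-20820562, minus strand): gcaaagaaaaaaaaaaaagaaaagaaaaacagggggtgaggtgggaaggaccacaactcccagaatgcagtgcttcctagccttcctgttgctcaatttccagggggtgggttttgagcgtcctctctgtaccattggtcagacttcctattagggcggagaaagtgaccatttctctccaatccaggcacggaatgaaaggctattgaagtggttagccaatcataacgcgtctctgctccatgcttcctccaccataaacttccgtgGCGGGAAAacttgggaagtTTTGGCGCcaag
Orc1 (chr4:108579204-108579503, plus strand): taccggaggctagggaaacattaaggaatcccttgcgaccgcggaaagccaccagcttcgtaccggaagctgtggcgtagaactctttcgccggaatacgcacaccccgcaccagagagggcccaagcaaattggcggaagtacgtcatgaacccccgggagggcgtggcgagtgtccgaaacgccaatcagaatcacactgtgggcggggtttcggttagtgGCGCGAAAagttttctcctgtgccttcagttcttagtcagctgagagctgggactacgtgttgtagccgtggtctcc
Cdc6 (chr11:98907901-98908200, plus strand): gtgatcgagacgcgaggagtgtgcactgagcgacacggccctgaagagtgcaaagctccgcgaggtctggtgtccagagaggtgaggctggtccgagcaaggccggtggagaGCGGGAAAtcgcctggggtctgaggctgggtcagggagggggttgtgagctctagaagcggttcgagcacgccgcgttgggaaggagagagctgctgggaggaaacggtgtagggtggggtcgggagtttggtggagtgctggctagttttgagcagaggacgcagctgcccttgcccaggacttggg
Pold1 (chr7:44548766-44549065, minus strand): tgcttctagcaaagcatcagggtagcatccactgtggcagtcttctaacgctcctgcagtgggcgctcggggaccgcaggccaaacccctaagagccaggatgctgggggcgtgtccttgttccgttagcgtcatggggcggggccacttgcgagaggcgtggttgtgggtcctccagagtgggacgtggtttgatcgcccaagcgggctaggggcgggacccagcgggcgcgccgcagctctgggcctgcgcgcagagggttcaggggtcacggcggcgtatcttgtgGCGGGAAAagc
Rfc3 (chr5:151651159-151651458, minus strand): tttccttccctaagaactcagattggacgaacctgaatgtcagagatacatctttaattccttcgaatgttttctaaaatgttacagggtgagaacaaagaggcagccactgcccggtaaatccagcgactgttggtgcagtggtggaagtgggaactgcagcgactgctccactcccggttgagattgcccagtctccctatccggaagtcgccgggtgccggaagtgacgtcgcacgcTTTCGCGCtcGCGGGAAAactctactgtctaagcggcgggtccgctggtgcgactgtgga
Mcm2 (chr6:88898731-88899030, minus strand): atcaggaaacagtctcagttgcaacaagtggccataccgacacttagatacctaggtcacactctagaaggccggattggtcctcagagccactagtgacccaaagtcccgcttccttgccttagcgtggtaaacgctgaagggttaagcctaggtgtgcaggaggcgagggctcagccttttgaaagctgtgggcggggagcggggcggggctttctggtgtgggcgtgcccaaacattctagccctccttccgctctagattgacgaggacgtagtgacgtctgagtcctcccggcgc
Of 33 separated genes in the MCM, licensing, fork and nucleotide lists 30 had a promoter in the table, and 8 of these held a word (26.7%), against 407 of 12203 genes on the array (3.34%). Among separated MCM genes it was 2 of 4, with none in Mcm2 and Mcm10. Over whole lists, separated or not, words were present in 6 of 9 MCM family genes, 6 of 16 licensing genes, 7 of 29 fork genes, 1 of 26 nucleotide genes, 5 of 37 Myc and ribosome biogenesis genes and 1 of 29 mitosis genes. A match is a description of letters and not evidence of binding.

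Genes of mitosis differed less than those of replication. Of 35 mitosis genes 22 were positive (62.9%, against 62.5% of all genes), and the median was 0.02, below that of all genes. The 2 separated upward (5.71%, against 3.71% of all genes) were Aurka (0.15 ± 0.06), a spindle kinase, and the phosphatase Cdc25b (0.19 ± 0.06). The list mean was above all wild-type arrays in pre-leukemic pools 3 and 4 (0.09 and 0.13) and below them in pool 1 (-0.06). Mki67, a marker of cycling cells, measured 10.31, 10.15, 10.38 and 10.15 in wild type and 9.86, 9.90, 10.38 and 10.41 in pre-leukemic thymus. Its values were low in pools 1 and 2 and not in pools 3 and 4. Among 28 E2F, cyclin and Cdk inhibitor genes Cdk4 was separated upward (0.13 ± 0.06), a share of 3.57% against 3.71% of all genes. Cdkn1a, the Cdk inhibitor induced by p53, measured 8.92, 9.16, 8.19 and 9.10 in pre-leukemic pools and 8.36, 8.65, 8.32 and 8.53 in wild type (0.38 ± 0.20), high in 3 pools and lowest of all arrays in pool 3.

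Among p53 targets 18.8% of genes were separated upward and among damage response and repair genes 16.7%, against 3.71% of all genes, and 0 downward in both. Of 32 p53 targets 21 were positive (65.6%, against 62.5% of all genes), 6 separated upward and 0 downward (median 0.08). Psrc1, a microtubule regulator, measured 8.25, 8.29, 8.15 and 8.20 in wild type and 8.69, 9.05, 8.47 and 8.75 in pre-leukemic thymus (0.52 ± 0.11), and Zmat3, an RNA-binding protein, 7.50, 7.45, 7.47 and 7.37 and 7.80, 7.83, 7.69 and 7.91 (0.36 ± 0.07). Sesn2 (0.29 ± 0.08), Phlda3 (0.19 ± 0.07), Dcxr (0.15 ± 0.07) and the death receptor Tnfrsf10b (0.15 ± 0.06) were also separated, whereas Mdm2 (-0.11 ± 0.10), the feedback regulator of p53, and Fas (-0.26 ± 0.10) had negative differences. Of 54 damage response genes 9 were separated upward, among them the recombination genes Rad51b (0.35 ± 0.08), Eme1 (0.26 ± 0.07), Brca1 (0.14 ± 0.08) and Brca2 (0.19 ± 0.08), the nuclease Exo1 (0.25 ± 0.07) and the checkpoint kinase Chek1 (0.12 ± 0.06). The median of the 54 was 0.03, and the pools differed. The list mean relative to wild type was -0.04 and -0.03 in pre-leukemic pools 1 and 2 and 0.10 and 0.11 in pools 3 and 4. In pools 1 and 2, 23 and 21 of the 54 lay below all wild-type pools, and 15 and 18 above. In pools 3 and 4, 38 and 31 lay above, and 1 and 3 below. Of all genes, 24.4, 26.4, 16.8 and 30.7% lay below all wild-type pools in pools 1 to 4, and 39.4, 48.1, 31.3 and 24.2% above.

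Growth genes also had mostly higher means. Of 43 genes of Myc and ribosome biogenesis, 37 were positive and 12 separated upward (median 0.13), led by Nhp2 (0.29 ± 0.07), a component of small nucleolar RNA particles, and Mybbp1a (0.25 ± 0.07). Nhp2 measured 8.50, 8.43, 8.62 and 8.55 in wild type and 8.78, 8.88, 8.82 and 8.76 in pre-leukemic thymus. Myc itself was above the wild-type range in pools 1, 2 and 4 (10.80, 10.69 and 10.68) and below it in pool 3 (10.26). Cytosolic ribosomal protein genes had 7 of 42 separated upward (16.7%, against 3.71% of all genes) and a median of 0.04, with Rpl23a (0.26 ± 0.07) the largest of these. Oxidative phosphorylation (2 of 59, 3.39%), glycolysis and hypoxia (1 of 27, 3.70%) and cholesterol synthesis (0 of 19) were not above the share of all genes. Their medians were 0.04, 0.08 and 0.08.

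**Figure D4:**
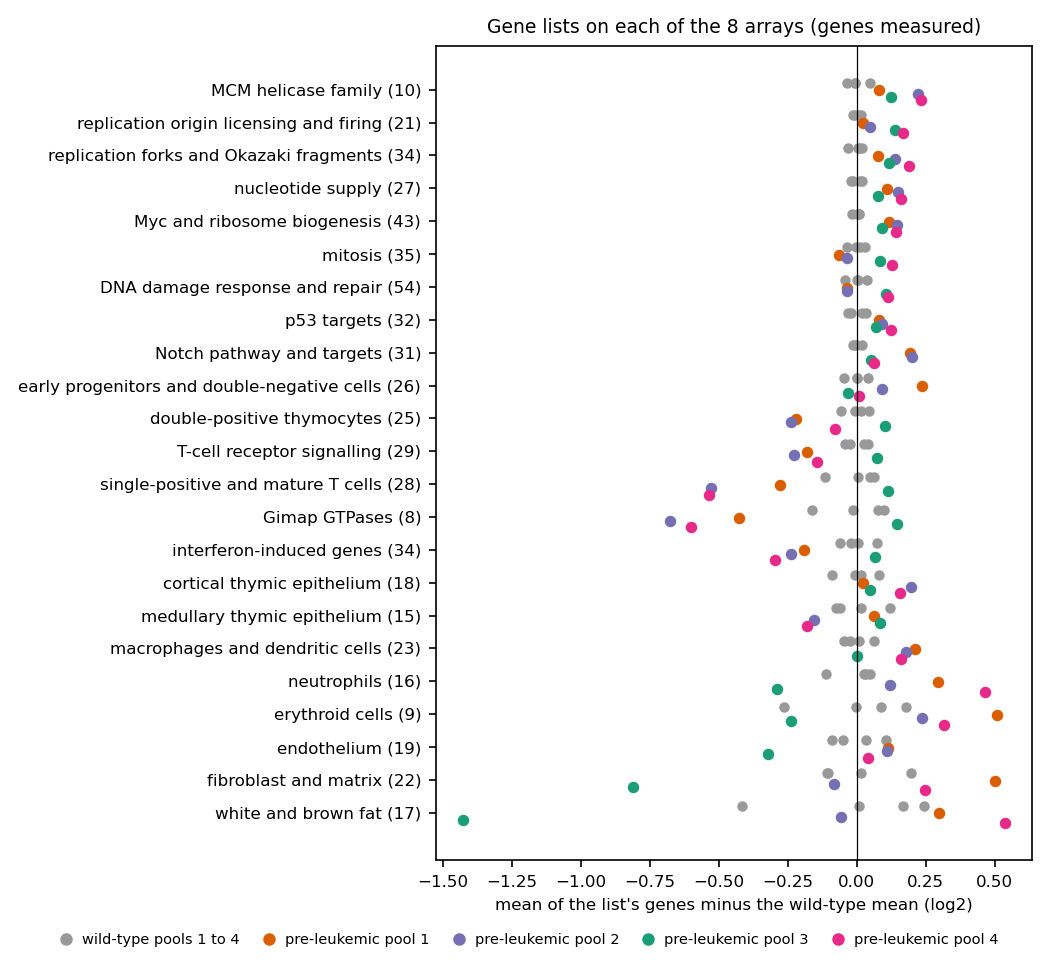
Mean of each gene list on each array minus its wild-type mean (log2, horizontal axis) for 23 lists, with the number of genes measured in parentheses; grey points are wild-type pools and coloured points pre-leukemic pools. MCM, fork, nucleotide and Myc lists lie right of wild type in all 4 pre-leukemic pools, and mature T-cell and Gimap lists lie left in pools 1, 2 and 4 only; fat and matrix lists are lowest in pool 3.

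Among genes of early thymocytes, Notch receptors carried the separated values. Notch1 measured 10.19, 10.07, 10.19 and 10.14 in wild-type pools 1 to 4 and 10.56, 10.95, 10.34 and 10.69 in pre-leukemic pools 1 to 4 (0.49 ± 0.12), and Notch3 8.48, 8.40, 8.51 and 8.50 and 8.95, 8.93, 8.52 and 8.84 (0.34 ± 0.10). All 4 pre-leukemic pools were above wild type for both, by the least in pool 3. The coactivator Maml3 (0.21 ± 0.07) was the only other separated gene of 31 in the Notch list, so 9.68% of the list was separated upward, against 3.71% of all genes. Of the 31, 22 were positive (71.0%, against 62.5% of all genes), with a median of 0.11. The 9 negative ones included Fbxw7 (-0.12 ± 0.10) and Gata3 (-0.10 ± 0.09). Ptcra, the pre-T-cell receptor chain and a Notch target, measured 9.18, 9.06, 9.09 and 9.36 in wild type and 9.81, 9.98, 8.97 and 9.60 in pre-leukemic thymus (0.42 ± 0.20): 3 pools lay above wild type and pool 3 below. Il2ra, a receptor of double-negative cells, was above wild type in pools 1 and 4 (11.44 and 11.25) and within its range in pools 2 and 3 (0.34 ± 0.17). Dtx1, a Notch-induced gene, measured 9.32, 8.62, 8.56 and 8.35 in pre-leukemic pools 1 to 4 against 8.53, 8.45, 8.37 and 8.34 in wild type (0.29 ± 0.18). Its groups overlapped, with pool 4 within the wild-type range. Of 26 early progenitor and double-negative genes, Notch3 alone was separated (3.85%, against 3.71% of all genes), and the median was 0.06. Of the 26, 18 were positive and 8 negative. The lowest was Il7r (-0.56 ± 0.19), which is also in the mature T-cell list below, and Cd44 had -0.23 ± 0.11.

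Genes of maturing thymocytes lay on the other side in 3 of the pools. Of 28 single-positive and mature T-cell genes 26 had a negative difference and the median was -0.31, against 0.040 over all genes. 0 were separated, and over all genes 0.736% were separated downward. Il7r, the interleukin 7 receptor, measured 10.68, 10.85, 10.43 and 10.45 in wild-type pools and 10.03, 9.66, 10.59 and 9.91 in pre-leukemic pools (-0.56 ± 0.19). Ccr7, the chemokine receptor that guides cells to the medulla, measured 10.82, 10.72, 10.62 and 10.51 and 10.33, 9.87, 10.87 and 9.76 (-0.46 ± 0.22). S1pr1, needed for exit from the thymus, measured 9.31, 9.41, 9.45 and 9.26 and 9.06, 8.73, 9.36 and 8.75 (-0.38 ± 0.14). In all 3 genes pools 1, 2 and 4 were below every wild-type pool and pool 3 was not. For 20 of the 28 genes this same arrangement was found, against 1121 of all 15223 genes. In 12 of the 28 pool 3 was above every wild-type pool, against 31.3% of all genes. Cd40lg, a ligand of activated CD4 cells, had the most negative difference (-0.69 ± 0.25).

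The Gimap genes, a family of GTPases of lymphocyte survival, gave the same picture most compactly. This list and the mature T-cell list share members, Gimap3 and Gimap8 among them, so their agreement is not independent. All 8 measured Gimap genes had a negative difference (median -0.41). In pre-leukemic pools 1, 2 and 4 but not 3, 7 of 8 were below all wild-type pools, against 1121 of all 15223 genes. Gimap4 measured 10.66, 10.73, 10.57 and 10.40 in wild type and 10.05, 9.70, 10.89 and 9.67 in pre-leukemic thymus (-0.51 ± 0.25), and Gimap6 10.39, 10.56, 10.27 and 10.17 and 9.76, 9.36, 10.63 and 9.50 (-0.54 ± 0.25). Pool 3 was the highest of the 8 arrays for both. The mean of the 8 genes, relative to wild type, was -0.43, -0.68 and -0.60 in pools 1, 2 and 4 and 0.15 in pool 3. Without pool 3 the median was -0.57. In whole tissue, fewer cells of a type and less RNA per cell cannot be told apart.

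**Figure D5:**
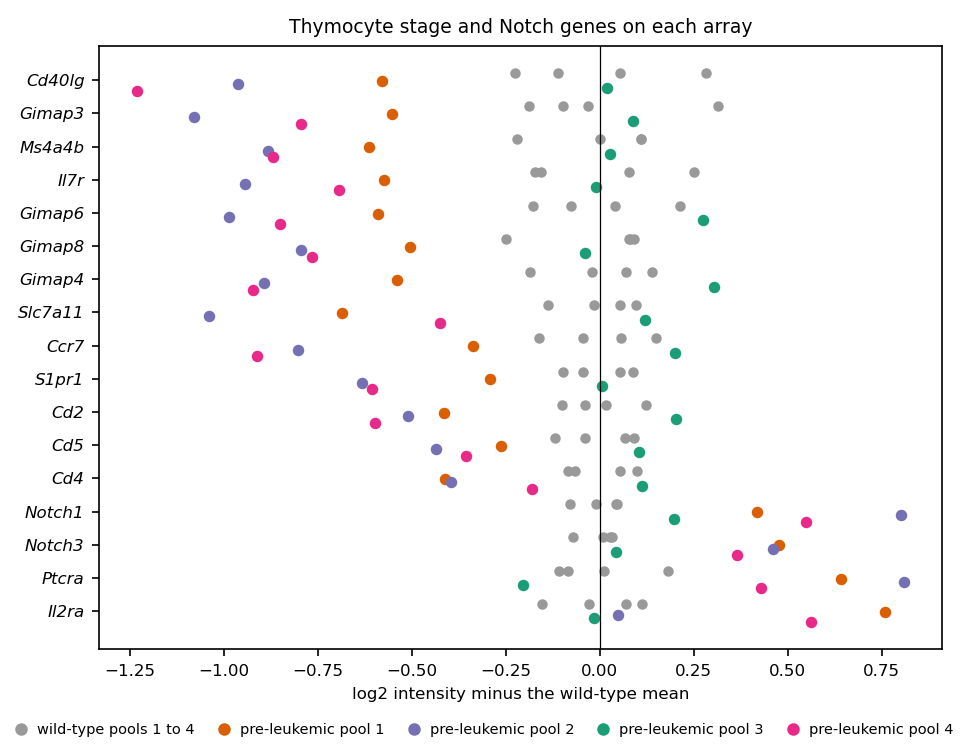
Log2 intensity minus the wild-type mean (horizontal axis) for 17 thymocyte stage and Notch genes on the 8 arrays; grey points are wild-type pools and coloured points pre-leukemic pools. From Cd40lg down to Cd4 the pre-leukemic pools 1, 2 and 4 lie left of wild type while pool 3 stays near or right of 0, and Notch1 lies right in all 4 pools.

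Double-positive genes differed less. Of 25, 20 were negative, 0 separated and the median was -0.13. Cd4 measured 11.86, 11.81, 11.67 and 11.69 in wild type and 11.35, 11.36, 11.87 and 11.58 in pre-leukemic thymus (-0.22 ± 0.12), Rag2, of the recombinase, 9.61, 9.77, 9.36 and 9.52 and 9.10, 8.85, 9.70 and 9.45 (-0.29 ± 0.18), and the cystine transporter Slc7a11 10.50, 10.54, 10.31 and 10.43 and 9.76, 9.40, 10.57 and 10.02 (-0.51 ± 0.21). Pool 3 was above wild type for 14 of the 25 and below it for 0, while pools 1, 2 and 4 were below for 20, 18 and 15. Of all genes, 31.3% were above and 16.8% below in pool 3, and 24.4, 26.4 and 30.7% below in pools 1, 2 and 4. Dntt, the terminal transferase, had 0.09 ± 0.07. T-cell receptor signalling genes had 26 of 29 negative, 0 separated and a median of -0.12, with Ptprc, the phosphatase CD45, at -0.28 ± 0.09. Ikzf1, which encodes Ikaros, lay below wild type in pools 1 and 2 and within its range in pools 3 and 4 (-0.28 ± 0.14).

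Interferon-induced genes also had negative differences, 29 of 34, with a median of -0.17. Here 2 were separated downward, 5.88% against 0.736% of all genes. Oas2, an antiviral synthetase, measured 8.23, 7.97, 8.15 and 8.04 in wild type and 7.93, 7.66, 7.90 and 7.44 in pre-leukemic thymus (-0.36 ± 0.12), and Parp14 9.55, 9.52, 9.73 and 9.62 and 9.25, 9.31, 9.46 and 9.27 (-0.28 ± 0.08). Every pre-leukemic pool was below every wild-type pool for both. The chemokine Cxcl10 was lower on average (-0.46 ± 0.12) with overlapping groups. The list mean was -0.19, -0.24 and -0.30 in pools 1, 2 and 4 and 0.06 in pool 3. Of the 34 genes, 16 lay below wild type in pools 1, 2 and 4 but not 3, against 1121 of all 15223 genes. Of 23 NF-kappaB targets Cd83 alone was separated (0.23 ± 0.07, upward, 4.35% of the list, against 3.71% of all genes). In the same arrangement, below wild type in pools 1, 2 and 4 but not 3, lay 10 of the 23. Glucocorticoid-induced genes had 0 of 20 separated and a median of -0.13.

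Among the stromal lists only that of cortical epithelium held separated genes. Here 3 of 18 were separated upward, 16.7% against 3.71% of all genes. They were the keratins Krt8 (0.21 ± 0.08) and Krt18 (0.27 ± 0.06) and the transcription factor Pax1 (0.22 ± 0.06). Krt18 measured 10.81, 10.70, 10.80 and 10.88 in wild type and 11.06, 11.15, 11.02 and 11.06 in pre-leukemic thymus. Psmb11, a cortical proteasome subunit, lay at 10.53, 10.72, 10.62 and 10.68 in pre-leukemic pools, a narrower range than the 10.44, 10.08, 9.95 and 10.58 of wild type (0.38 ± 0.14). Dll4, the Notch ligand of the cortex, was at 7.91, 8.47, 7.74 and 8.14 against 7.71, 7.80, 7.72 and 7.80 (0.31 ± 0.14), above wild type in pools 1, 2 and 4. Medullary epithelium (median -0.08) and endothelium (-0.02) had 0 of 15 and 0 of 19 separated. For fat genes the median was -0.19 with all pools and 0.28 without pool 3, and for fibroblast and matrix genes 0.0018 and 0.27. The fat median had a positive sign only without that pool, among the alternatives run, while the matrix median was near 0 and changed sign with several of them, from -0.21 without pre-leukemic pool 1 to 0.27 without pool 3. In pool 3 Adipoq, an adipocyte hormone, measured 7.37 against 9.27 to 10.40 on the other 7 arrays. Pool 3 was thus the pre-leukemic array with the lowest fat and matrix means and the highest mature T-cell mean, and the part of the one in the other was not tested.

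Blood and myeloid genes included some of the largest separated values. Shares separated upward were 14.3% for eosinophil and mast-cell, 13.0% for macrophage and dendritic, 18.8% for neutrophil and 15.4% for cytotoxic genes. Over all genes the share was 3.71%. It was 9.09% for plasma-cell genes and 0 for erythroid, platelet, plasmacytoid dendritic, MHC class II and B-cell genes. Ccr3, a chemokine receptor of eosinophils, measured 6.92, 7.17, 6.69 and 7.14 in wild type and 7.85, 7.82, 7.35 and 8.06 in pre-leukemic thymus (0.79 ± 0.16, a fold of 1.73). Of 14 eosinophil and mast-cell genes, Il5ra was the only other one separated (0.25 ± 0.09, at 5.39 to 5.98 on the 8 arrays, under the 95th percentile of olfactory receptors) and Prg2, a granule protein of eosinophils, had -0.01 ± 0.11. Mzb1, a chaperone of B and plasma cells, measured 8.22, 8.27, 8.10 and 7.76 and 8.59, 9.0, 9.26 and 9.07 (0.89 ± 0.16). Among other genes of B and plasma cells, the joining chain Jchain had -0.66 ± 0.25, the B-cell antigen receptor chain Cd79a -0.28 ± 0.14 and Ms4a1, which encodes CD20, -0.49 ± 0.20. Fcna, a lectin of macrophages, measured 8.06, 8.06, 8.09 and 8.08 and 8.79, 8.95, 8.15 and 8.87 (0.62 ± 0.16), with pool 3 only just above wild type. Without pre-leukemic pool 3, Fcna was the 1 cluster called in any alternative fit (0.80 ± 0.06, limma adjusted p = 0.0339). The complement genes C1qa (0.20 ± 0.07) and C1qc (0.25 ± 0.08) and the receptor Sirpa (0.26 ± 0.08) were the 3 separated of 23 macrophage and dendritic genes. A positive difference was measured for 18 of these 23 (median 0.09). Granule genes Mmp9 (0.27 ± 0.10), Ctsg (0.36 ± 0.10) and Prtn3 (0.18 ± 0.07) were the 3 separated of 16 neutrophil genes, Ctsg and Prtn3 at levels under the 95th percentile of olfactory receptors. Of the 16, 13 had a positive difference (median 0.17), while Mmp8 (-0.02 ± 0.19), S100a8 (-0.02 ± 0.28) and Retnlg (-0.05 ± 0.18) were near 0. The neutrophil list mean relative to wild type was 0.30, 0.12 and 0.47 in pre-leukemic pools 1, 2 and 4. In pool 3 it was -0.29, with 10 of 16 genes below all wild-type pools, against 16.8% of all genes in that pool. Gzma (0.33 ± 0.10) and Eomes (0.25 ± 0.09) were the 2 separated of 13 cytotoxic genes, of which 6 lay above the 95th percentile of olfactory receptors. Of the 13, 8 had a positive difference (61.5%, against 62.5% of all genes), while Klrd1 (-0.18 ± 0.19) and Ncr1 (-0.09 ± 0.10) were negative. The median was 0.04, against 0.040 over all genes, and it was -0.03 after quantile normalization and -0.007 after centring.

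Beyond the genes above, the largest separated differences upward, among genes whose higher group mean exceeded the 95th percentile of olfactory receptors (6.80), were those of Nr1h5 (0.80 ± 0.15), a nuclear receptor, Uaca (0.49 ± 0.12), Dglucy (0.47 ± 0.12), the palmitoyltransferase Zdhhc2 (0.42 ± 0.10), Il12rb2 (0.41 ± 0.08), a chain of the interleukin 12 receptor, Dact1 (0.41 ± 0.11), the nucleoside diphosphate kinase Nme4 (0.39 ± 0.07), Spats2 (0.38 ± 0.09), the potassium channel Kcnk5 (0.37 ± 0.08) and Mcoln2 (0.36 ± 0.09). Nr1h5 measured 6.32, 6.23, 6.31 and 6.15 in wild type and 7.04, 7.03, 6.69 and 7.47 in pre-leukemic thymus, and Nr1h5 and Dact1 exceeded that percentile only through the pre-leukemic group, with wild-type means of 6.25 and 6.45. Il12rb2 measured 8.30, 8.27, 8.19 and 8.19 and 8.48, 8.72, 8.58 and 8.82. The lowest pre-leukemic pool lay above the highest wild-type pool by 0.37 for Nr1h5 and by 0.18 for Il12rb2. Downward the largest were Phxr4 (-0.60 ± 0.13), Gdpd3 (-0.38 ± 0.10), the kinase-like Peak1 (-0.36 ± 0.13), Acta2 (-0.34 ± 0.10), the actin of smooth muscle, Oas1b (-0.34 ± 0.10), Ttc14 (-0.33 ± 0.14), Atp11b (-0.33 ± 0.12), Rabgap1l (-0.32 ± 0.10) and Zbtb20 (-0.29 ± 0.12). Phxr4 measured 8.69, 8.33, 8.34 and 8.19 in wild type and 8.0, 7.53, 7.77 and 7.87 in pre-leukemic thymus, and Gdpd3, a phosphodiesterase, 11.51, 11.52, 11.26 and 11.52 and 11.12, 10.84, 11.09 and 11.24.

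Counting pools gave the measure of what was shared. 1897 genes (12.5%) had exactly 3 pre-leukemic pools above all wild-type arrays and 1371 (9.01%) exactly 3 below. Pool 3 was the missing one for 1121 of the 1371 genes (81.8%), and in 561 of these it lay above every wild-type pool. For the 1897 genes the missing pool was pool 4 for 781, pool 3 for 727, pool 1 for 264 and pool 2 for 125. Single pools had marked genes of their own. Gper1, an estrogen receptor, reached 7.72 in pool 1 against 6.13 to 6.85 elsewhere, Mef2d was at 6.41 in pool 2 against 7.31 to 8.48, and the calprotectin gene S100a9 at 8.25 in pool 4 against 6.57 to 7.75. The stress gene Gadd45b stood at 9.01 in pool 3 against 7.83 to 8.56.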

How the data were processed

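RNA of 8 pools of 3 whole thymuses each was read on Affymetrix Mouse Exon 1.0 ST arrays, after amplification with the Ambion WT expression kit, per the labels' protocols. The authors deposited 1 linear intensity for each of 17829 transcript clusters, with the software and the normalization not given in the sources used here. Values ran from 6.17 to 24310 and were log2-transformed with no pseudocount. An array has no read depth, so precision is limited by the number of arrays, and the median SE of a difference was 0.0991. Symbols came from the platform annotation: 15618 clusters have 1 symbol, 1370 several and 841 none. Where a symbol had several clusters, the one with the highest mean was used, which left 15223 genes.

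Groups were taken from the sample titles. A limma model (version 3.58.1, R 4.3.3) without covariates was fitted on the 8 arrays with lmFit and eBayes, with two-sided tests and Benjamini-Hochberg adjustment over all clusters. It was tested on simulated data. A cluster was called at an adjusted p under 0.05. Gene lists were described by counts and medians without a test. Lists could share members, and 71 of the 967 genes in lists were in more than 1. The comparison, lists and named genes were chosen with earlier results of these data known. Named were Mcm2 to Mcm7, Mcm10, Notch1, Ikzf1, the 15 largest separated differences in each direction above the olfactory receptor 95th percentile, and, by moderated t, 2 genes per direction from each list. For each pre-leukemic pool 5 genes farthest above and 5 farthest below the other 7 arrays could be named. Other genes, among them those of liver, heart and parathyroid and further list members, were added after their values were seen. Alternatives were quantile normalization, centring on the array median, leaving out weak clusters, an offset of 16, a replicate block, all 12 arrays, a robust variance trend, array weights, the series' posterior criterion, a minimum fold of 1.5, and leaving out each array. 24 columns of other deposited matrices name pools that match no label and were not used.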

Additional observations from a re-analysis of the deposited data

Results flagged for a closer look

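Among 360 groups of 4 values (134 genes and 46 lists in 2 groups) 19 had 1 value standing apart from the other 3. Chance sets such a value apart in about 1 in 20 groups, but some of these genes were named for the value of a single array, so the count is not to be read against that rate. Wild-type pool 4 stood apart for 5 transcripts known from liver: Alb at 13.19, Ahsg at 11.09, Ttr at 10.35, Fgg at 9.22 and Mup3 at 8.44. Pre-leukemic pool 3 stood apart for Alb as well, at 8.70. Their source was not tested.

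The other values apart are single ones. In wild type they were Cdc25b (9.36) and Gdpd3 (11.26) in pool 3, Mef2d (8.48) in pool 1 and Rabgap1l (9.23) in pool 4. In pre-leukemic thymus they were Dcxr (8.16) and Il5ra (5.98) in pool 2, Eme1 (7.99) in pool 1 and Orc1 (8.40) in pool 4. For list means relative to wild type, pre-leukemic pool 3 was apart for endothelium (-0.32) and regulatory T cells (0.14), wild-type pool 3 for neutrophils (-0.11), and wild-type pool 4 (0.033) and pre-leukemic pool 1 (0.055) for heat shock genes.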

How the results depend on the processing

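The number of called clusters was 0 in 17 of the 18 alternatives and 1 (Fcna) without pre-leukemic replicate 3, so it ran from 0 to 1 over the fits that left out an array. With replicate number as a block 0 were called and 609 had an unadjusted p under 0.05; same-numbered pools did not deviate together (correlations of -0.55 to -0.039), and 0 pools correlated best with their own number. That count was 1 for a minimum fold of 1.5, 4140 with array weights and 609 to 2850 otherwise. Separated genes numbered 690 to 1346 upward and 142 to 1233 downward with 1 array left out, and smaller groups separate more easily; the highest came without pre-leukemic replicates 3 and 4. After median centring 264 were separated upward, and after quantile normalization 249 downward; which scaling is right was not tested.

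Of 46 list medians 31 kept their sign under all alternatives run on lists. Under median centring the medians were 0.13 for nucleotide supply, 0.090 for Myc and ribosome biogenesis, 0.019 for E2F and G1 genes, 0.031 for p53 targets (0.041 after quantile normalization) and -0.0056 for ribosomal proteins. With 1 array left out they ran from -0.13 to -0.032 for B cells, from -0.15 to -0.073 for MHC class II, from 0.034 to 0.078 for E2F and G1 genes and from 0.070 to 0.10 for p53 targets.

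Of 2397 gene values under alternatives 23 were reversed. With array weights Adipoq had 0.17, Prg2 0.054, Mmp8 0.18, Retnlg 0.070 and S100a8 0.054. With 1 array left out, Adipoq ran from -0.81 to 0.20, Alb from -2.09 to 0.32, Prg2 from -0.076 to 0.054, Pth from -0.25 to 1.11, S100a9 from -0.20 to 0.35, Mmp8 from -0.12 to 0.18, Retnlg from -0.16 to 0.11 and S100a8 from -0.32 to 0.19. The cause was not tested.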
